A study of Mus musculus with 8 samples.

Results

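Described here are 9 genes of dopamine and protein kinase A (PKA) signalling in striatal projection neurons, the GABA-releasing output cells of the striatum. They were measured in brain RNA of control mice and of mice with a conditional knockout (cKO) of Akap11. The 9 genes were chosen by name for their known roles, with earlier results of these data known, and found by symbol. Drd1, Pdyn and Tac1 stand for the direct pathway and Drd2, Adora2a and Penk for the indirect pathway. Gnal, Rgs9 and Ppp1r1b stand for signalling steps used by both. All 9 were among the 57186 genes listed in the count files, and all 9 were among the 16766 genes that passed the low-count filter. The series holds 8 libraries of total RNA, 4 labelled control and 4 labelled Akap11 cKO, each from tissue whose label reads "brian", taken here as brain. The labels name no Cre driver, deleted exons, control genotype, brain region or age. The labels do not say that each library came from a separate animal. The p-values below therefore take libraries as the unit, and the spread between libraries may not be that between mice. Akap11 encodes an anchoring protein for PKA. The comparison asks whether its conditional knockout goes with a change in the transcripts of the dopamine pathway that acts through PKA.

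In the striatum, dopamine acts on separate populations of projection neurons. Cells of the direct pathway carry the D1 receptor, which is coupled to the stimulatory G protein Golf and raises cAMP, and they release dynorphin and substance P. Cells of the indirect pathway carry the D2 receptor, which lowers cAMP, and the adenosine receptor encoded by Adora2a, which raises it, and they release enkephalin. PKA activated by cAMP phosphorylates DARPP-32, which then inhibits protein phosphatase 1, and it phosphorylates CREB, a transcription factor that binds cAMP response elements.

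No difference between cKO and control brain was detected for any of the 9 genes. By edgeR's quasi-likelihood test, 0 of 9 passed an adjusted p of 0.05 over all genes tested, where 0.0239% of all genes did, and 0 of 9 reached an unadjusted p under 0.05, where 4.78% did. DESeq2 and limma voom also called 0 of 9. For 0 of 9 genes did the 4 cKO libraries lie wholly below the controls (1.39% of all genes) or wholly above them (1.57%). The log2 fold changes (cKO minus control) ran from -0.12 for Penk to 0.10 for Pdyn, with a median of -0.038 against 0.0034 over all genes tested, and 6 of 9 were negative against 48.8% of all genes. The 95% intervals reached no lower than -0.29 (Tac1, a fall of 18.4%) and no higher than 0.29 (Drd2, a rise of 22.1%). These counts come from bulk tissue, where fewer cells of a type and less RNA per cell cannot be told apart. With no brain region named, reads of the 9 genes from striatal projection neurons cannot be told apart from reads of other cells.

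Between 13841218 and 19991942 reads per library lay in genes. Akap11 was lower in every cKO library (214 to 240 CPM) than in every control library (291 to 373 CPM), which is -0.50 on the log2 scale (edgeR, SE 0.069, adjusted p 0.0103). CPM are counts scaled to a common library total with TMM factors, except that sums over a list use library totals alone. The share of reads assigned to genes was lowest in cKO replicate 1 (63.8%, with 73.7% to 79.7% elsewhere), and its deviations from the mean library correlated with GC content (Spearman's rho 0.66 across 10331 genes, which are not independent replicates). The same correlation was 0.37 in cKO replicate 2 and between -0.43 and -0.0075 in the other 6 libraries. Of the genes listed for projection neuron identity, 17 of 17 were tested, with a summed level of 2122 to 2279 CPM per library. The list includes the GABA synthesis genes Gad1 and Gad2 (means of 479 and 319 CPM in controls). The sum is therefore not a measure of these neurons alone. Markers of cortex (1572 to 1824 CPM) and thalamus (294 to 364 CPM) were also present. Those of cerebellum were low (37.4 to 82.0 CPM), and 2 of 7, Gabra6 and Pcp2, did not pass the filter. No listed marker was at 0 in all libraries.

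Promoter sequences were matched for 5 of the 9 genes, in 7 entries of RefSeq on build GRCm38.p6. They are Drd1, Pdyn, Tac1, Drd2 and Rgs9. None was matched for Adora2a, Penk and Ppp1r1b, and entries on the chromosome of Gnal were left out of the search. Each covers 250 bases before and 50 after an annotated start. They were searched on both strands for the full cAMP response element TGACGTCA and for its core TGACG, read as CGTCA on the other strand, which lies within the full element. Of 32851 promoters of this length, 1.79% hold the full element and 20.8% the core. None of the 7 entries holds the full element, and Tac1 alone holds the core, at 2 places that begin 197 and 43 bases before the start. The promoters of both dopamine receptors and of Tac1 are shown because the receptors define the pathways compared below and Tac1 holds the cores, which are in capitals. They lie at chr13:54055609-54055908 (minus strand) for Drd1, chr9:49340153-49340452 (plus strand) for Drd2 and chr6:7554811-7555110 (plus strand) for Tac1. GC makes up 65.7%, 70.3% and 54.0% of them. A match of letters is a description and does not show binding.
Drd1: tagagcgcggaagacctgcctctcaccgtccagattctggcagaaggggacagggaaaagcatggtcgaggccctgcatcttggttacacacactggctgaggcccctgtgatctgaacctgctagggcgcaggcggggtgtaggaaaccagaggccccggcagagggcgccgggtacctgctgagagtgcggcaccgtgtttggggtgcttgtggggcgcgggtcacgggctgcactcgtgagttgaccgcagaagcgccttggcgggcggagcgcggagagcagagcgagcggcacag
Drd2: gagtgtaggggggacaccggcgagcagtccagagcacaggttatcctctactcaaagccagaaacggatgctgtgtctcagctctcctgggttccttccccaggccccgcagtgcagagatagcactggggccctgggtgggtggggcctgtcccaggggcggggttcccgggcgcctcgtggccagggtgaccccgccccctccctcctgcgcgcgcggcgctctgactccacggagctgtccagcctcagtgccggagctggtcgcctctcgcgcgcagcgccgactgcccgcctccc
Tac1: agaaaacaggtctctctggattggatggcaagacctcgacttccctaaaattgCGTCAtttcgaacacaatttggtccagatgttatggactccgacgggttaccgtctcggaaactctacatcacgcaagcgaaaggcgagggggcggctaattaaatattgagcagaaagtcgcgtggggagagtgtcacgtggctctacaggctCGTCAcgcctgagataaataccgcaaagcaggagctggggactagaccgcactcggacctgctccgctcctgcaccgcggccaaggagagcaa

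The genes spanned a wide range of levels. Per kilobase of the longest annotated transcript, control brain held 122 ± 4.69 CPM of Penk (SD, n = 4) and 103 ± 1.95 of Ppp1r1b, followed by 46.6 ± 3.0 of Gnal. Rgs9 followed at 24.3 ± 0.655, Tac1 at 21.9 ± 1.96, Adora2a at 19.2 ± 0.762, Drd2 at 15.5 ± 0.754, Pdyn at 14.5 ± 0.731 and Drd1 at 12.6 ± 0.830. The enkephalin precursor and the DARPP-32 gene thus stood above the receptors on this scale. Neighbours whose control libraries overlapped were Rgs9 with Tac1, Tac1 with Adora2a, and Drd2 with Pdyn. Transcript lengths are those of GENCODE M21 and may differ from those the reads were counted on.

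Drd1 encodes the D1 receptor of the direct pathway (ENSMUSG00000021478, chromosome 13). Its level was 48.4, 45.4, 45.4 and 41.2 CPM in control replicates 1 to 4, and 37.1, 45.7, 44.8 and 44.5 CPM in cKO replicates 1 to 4. cKO replicate 1 was the lowest library, and the other 3 cKO libraries lay inside the control range. The means were 45.1 ± 2.97 and 43.0 ± 3.96 CPM (SD, n = 4), and the log2 fold change was -0.064 (SE 0.078, 95% interval -0.23 to 0.098, edgeR adjusted p 0.913). Without cKO replicate 1 it was -0.0060.

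Pdyn encodes prodynorphin, the precursor of the dynorphin peptides that act on kappa opioid receptors (ENSMUSG00000027400, chromosome 2). It stood at 36.2, 33.9, 35.9 and 32.5 CPM in the controls and at 38.1, 39.7, 32.2 and 38.2 CPM in the cKO libraries. All cKO libraries but replicate 3 lay above all controls and replicate 3 lay below them all. The fitted log2 fold change was 0.096 (SE 0.079, 95% interval -0.069 to 0.26, edgeR adjusted p 0.893).

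Tac1 encodes the precursor of substance P and neurokinin A (ENSMUSG00000061762, chromosome 6). Control libraries held 43.4, 48.0, 43.1 and 38.5 CPM, and cKO libraries 35.1, 43.2, 37.2 and 43.5 CPM. The groups overlapped, with cKO replicates 1 and 3 below the lowest control. On the log2 scale the fold change was -0.12 (SE 0.085, 95% interval -0.29 to 0.059, edgeR adjusted p 0.889), the direction opposite to that of Pdyn within the same pathway.

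Drd2 encodes the D2 receptor of the indirect pathway (ENSMUSG00000032259, chromosome 9). It stood at 41.9, 37.6, 40.0 and 38.3 CPM in control brain and at 52.2, 41.8, 35.8 and 38.9 CPM in cKO brain. cKO replicate 1 was the highest of all libraries, while cKO replicate 3 was the lowest. edgeR's log2 difference was 0.091 (SE 0.094, 95% interval -0.11 to 0.29, adjusted p 0.911), and without cKO replicate 1 it turned to -0.027.

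Adora2a encodes the adenosine receptor of indirect pathway neurons (ENSMUSG00000020178, chromosome 10). Its level was 51.9, 50.1, 49.9 and 47.1 CPM in control replicates and 52.6, 53.7, 42.1 and 46.2 CPM in cKO replicates. The cKO libraries lay on both sides of the controls, 2 above and 2 below. Between groups the log2 fold change was -0.033 (SE 0.077, 95% interval -0.19 to 0.13, edgeR adjusted p 0.959), and it turned to 0.027 without cKO replicate 3.

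Penk encodes proenkephalin, the precursor of the enkephalins (ENSMUSG00000045573, chromosome 4), and had the lowest p-value of the 9 genes. Controls held 182, 183, 173 and 169 CPM, against 151, 179, 161 and 159 CPM in cKO brain. cKO replicates 1, 3 and 4 lay below all controls, and cKO replicate 2 lay among them. The means were 177 ± 6.80 and 162 ± 12 CPM (SD, n = 4), and the fitted change was -8.03%. edgeR's log2 fold change was -0.12 (SE 0.061), its 95% interval ran from -0.25 to 0.0059, and the test was not passed (unadjusted p 0.0606, adjusted p 0.889). Its exons share 233 of 1634 bases with A830012C17Rik on the opposite strand, and no source used here states whether the counting used strand.

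**Figure D1:**
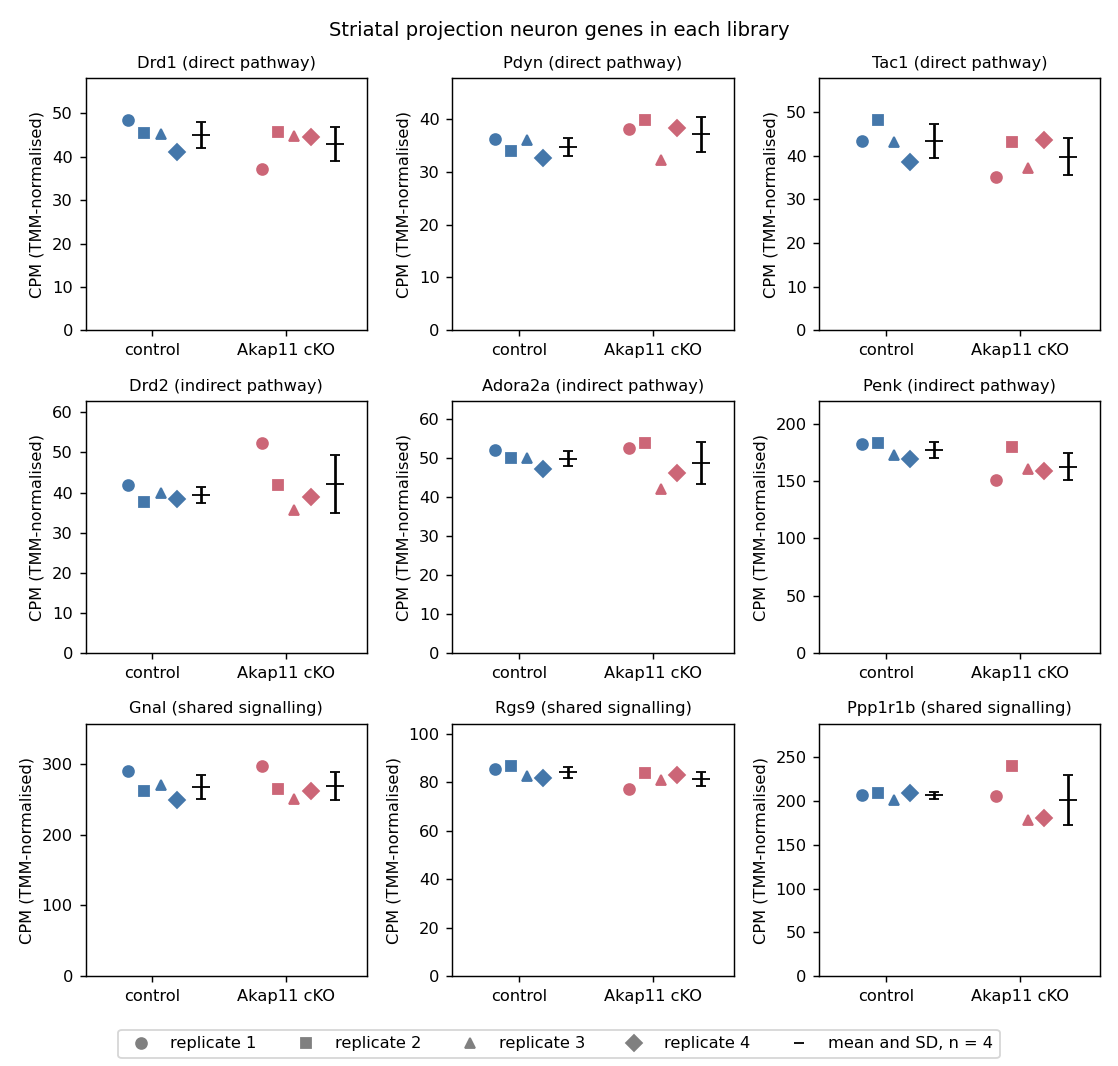
Level of each of the 9 genes in CPM (vertical axes, from 0) in the 4 control and 4 cKO libraries, 1 symbol per replicate number, with the mean and SD of each group as a black bar. The groups overlap in all 9 genes, and cKO replicate 1 is the lowest library for Drd1 (37.1 CPM) and the highest for Drd2 (52.2 CPM).

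Among the shared steps, Gnal encodes the alpha subunit of Golf, which couples D1 and adenosine receptors to adenylyl cyclase (ENSMUSG00000024524). It stood at 290, 261, 270 and 249 CPM in controls and 297, 265, 250 and 261 CPM in cKO libraries. The values of both groups covered nearly the same range. Its log2 fold change was 0.0037 (SE 0.063, 95% interval -0.13 to 0.14, edgeR adjusted p 0.995). Its sign turned without control replicate 2, without control replicate 4 and without cKO replicate 1, where it was -0.051, and 852 of its 11172 exonic bases are shared with Mppe1 on the opposite strand.

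Rgs9 encodes a GTPase-activating protein that shortens signalling of Gi-coupled receptors, the D2 receptor among them (ENSMUSG00000020599, chromosome 11). It held 85.4, 86.6, 82.6 and 81.8 CPM in controls and 77.4, 83.7, 80.9 and 83.0 CPM in cKO libraries. This gene varied least among the cKO libraries, with cKO replicates 1 and 3 below the controls. Its log2 fold change was -0.049 (SE 0.058, 95% interval -0.17 to 0.072, edgeR adjusted p 0.913).

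Ppp1r1b encodes DARPP-32, the PKA substrate and phosphatase inhibitor of these neurons (ENSMUSG00000061718, chromosome 11). The controls lay close together at 207, 209, 201 and 209 CPM, whereas the cKO libraries held 206, 240, 179 and 180 CPM. cKO replicate 2 lay above all controls and cKO replicates 3 and 4 below them. Its log2 fold change was -0.038 (SE 0.076, 95% interval -0.20 to 0.12, edgeR adjusted p 0.947), and it turned to 0.011 without cKO replicate 3 and to 0.0081 without cKO replicate 4. With offsets for GC content it was -0.13 (edgeR unadjusted p 0.0334, adjusted p 0.953). Of its 2928 exonic bases, 460 are shared with 1700003D09Rik on the opposite strand.

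**Figure D2:**
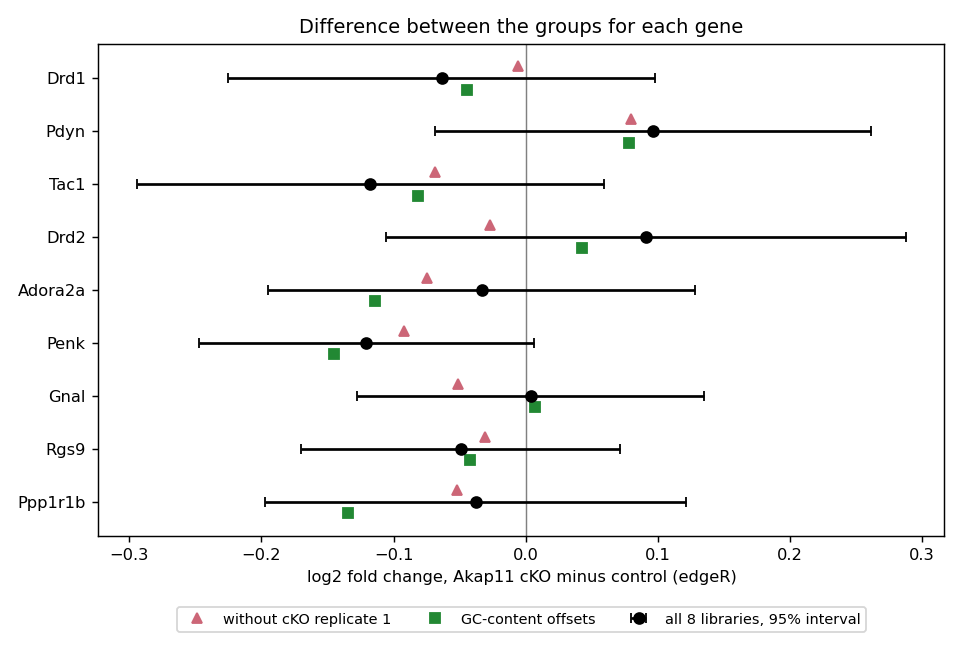
Log2 fold change of each gene, cKO minus control (horizontal axis), with its 95% interval from the edgeR fit on 8 libraries as black points and bars. Triangles give the value without cKO replicate 1 and squares the value with GC-content offsets. Every interval includes 0, and Drd2 moves from 0.091 to -0.027 without cKO replicate 1.

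The balance of the pathway genes was compared within each library. As reads of bulk brain tissue, it is not a measure of striatal projection neurons alone. The control libraries held 1.15, 1.21, 1.13 and 1.07 Drd1 reads per Drd2 read, and cKO replicates 2 to 4 held 1.09, 1.25 and 1.14. In cKO replicate 1 the ratio was 0.711. Drd1 made up 41.5% of the reads of both receptors there (Wilson 95% interval 38.8% to 44.3%, counting error only), against 51.8% to 55.6% in the other 7 libraries, whose intervals reached no lower than 49.3%. The log2 ratio averaged 0.19 ± 0.070 in control and 0.038 ± 0.36 in cKO libraries (SD, n = 4). The difference of -0.15 gave a two-sided exact permutation p of 0.657, where 0.0286 is the smallest that 4 against 4 libraries allow. Without cKO replicate 1 the difference was 0.024 (exact permutation p 0.743, smallest possible 0.0571).

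With all 3 genes of each pathway, the direct minus indirect mean log2 CPM was -0.79, -0.74, -0.76 and -0.85 in control replicates and -1.02, -0.79, -0.72 and -0.65 in cKO replicates. cKO replicate 1 was the lowest library on this measure and cKO replicate 4 the highest. The group means were -0.79 ± 0.051 and -0.79 ± 0.16 (SD, n = 4), a difference of -0.0070, or 0.068 without cKO replicate 1. This mean over chosen genes was not tested. The difference between groups is smaller than the SD among the libraries of either group.

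**Figure D3:**
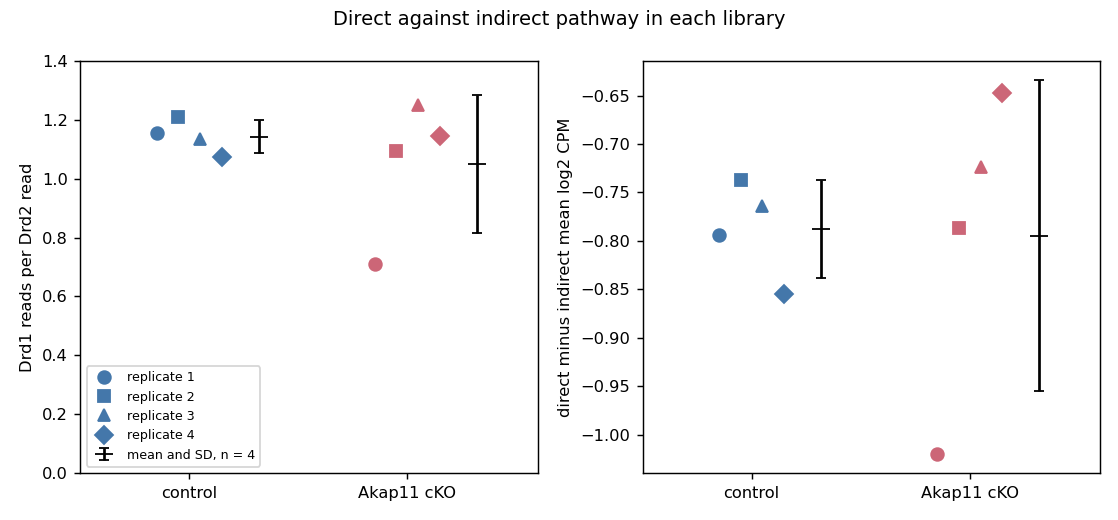
Drd1 reads per Drd2 read (left, axis from 0) and the direct minus indirect mean log2 CPM (right, axis not from 0) in each library, 1 symbol per replicate number, with group means and SD as black bars. cKO replicate 1 lies lowest on both, at 0.711 and -1.02, and the other 3 cKO libraries lie at or around the controls.

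The 9 genes did not move as a block in the library that stood apart. In cKO replicate 1, relative to the mean of the other 7 libraries, the log2 level was 0.42 for Drd2, 0.17 for Gnal, 0.11 for Adora2a, 0.10 for Pdyn and 0.021 for Ppp1r1b. It was -0.28 for Drd1, -0.27 for Tac1, -0.19 for Penk and -0.11 for Rgs9. Members of both pathways thus lay on both sides. The longest transcripts of Tac1, Drd1 and Rgs9 hold 42.8%, 46.0% and 48.2% GC, the lowest of the 9, and those of Drd2, Adora2a and Ppp1r1b 55.0%, 59.2% and 61.0%, the highest. Gnal, Pdyn and Penk lie between, at 49.0%, 51.9% and 52.7%. The loess trend of all genes on GC content gave 0.11 of the 0.42 of Drd2 and -0.082 of the -0.28 of Drd1 in this library. It gave -0.15 of the -0.27 of Tac1, -0.037 of the -0.11 of Rgs9 and 0.043 of the 0.10 of Pdyn. The trend was larger than the deviation for Adora2a (0.18 against 0.11) and Ppp1r1b (0.22 against 0.021). It ran opposite to the deviation for Penk (0.061 against -0.19) and Gnal (-0.023 against 0.17). With that trend subtracted, cKO replicate 1 still had the lowest Drd1 to Drd2 ratio, 0.797 against 1.07 to 1.22 in the other libraries.

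The spread between libraries was larger in the cKO group for 9 of 9 genes, where it was larger for 64.1% of 10368 genes with a mean of at least 10 CPM. The coefficient of variation had a median of 4.87% in control and 9.20% in cKO libraries for the 9 genes, and of 5.76% and 7.71% for the larger set. Counting error accounts for 1.38% to 4.54% per library, given the 485 to 5245 reads of these genes. Without cKO replicate 1, the spread was larger in cKO for 5 of 9 genes (Pdyn, Drd2, Adora2a, Penk and Ppp1r1b) and for 48.0% of all, and the median over the 9 was 7.72%. The gene with the widest difference was Ppp1r1b, at 1.89% in control and 14.2% in cKO libraries, or 17.4% without cKO replicate 1. On the log2 scale its SD in cKO libraries was 0.20, and 0.14 with GC-content offsets, against 0.028 and 0.051 in controls. For Adora2a the SD was 0.16 in cKO and 0.058 in control libraries, and 0.10 in both with the offsets. These spreads, the receptor shares and the values of cKO replicate 1 were described after the levels had been seen, and the difference in spread was not tested.

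**Figure D4:**
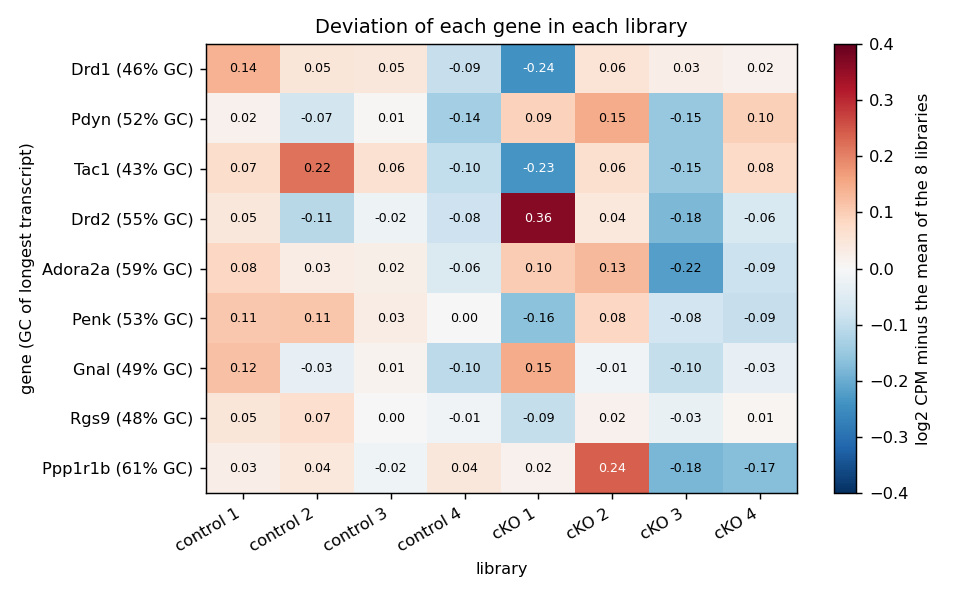
Log2 CPM of each gene in each library minus its mean over the 8 libraries (colour and printed value), with the GC content of its longest transcript beside the name. In cKO replicate 1 Drd2 is high (0.36) and Drd1 (-0.24) and Tac1 (-0.23) are low, and Ppp1r1b ranges from -0.18 to 0.24 among cKO libraries but from -0.02 to 0.04 among controls.

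Pairs of genes were compared across the 8 libraries in 3 cases. Drd2 and Adora2a, receptors of the same neurons, varied together, with Pearson's r of 0.68 (exact permutation p 0.0128, adjusted over 3 pairs 0.0384) and Spearman's rho of 0.76 (exact permutation p 0.0368, adjusted 0.110). Without the 2 libraries farthest from the median of Drd2, cKO replicates 1 and 3, r was 0.73 over 6 libraries (exact permutation p 0.111), so that the test no longer passed without them although r was no smaller. The r of deviations from the group means was 0.77. The longest transcripts of Drd2 and Adora2a hold 55.0% and 59.2% GC. Their GC-content offsets (log2) were 0.093 and 0.16 in cKO replicate 1, and -0.065 and -0.099 in control replicate 1. The r with these offsets subtracted was not computed, so a part of GC content in it was not tested. Drd1 and Drd2 gave r of -0.62 (exact permutation p 0.221, adjusted 0.332) and rho of 0.071 (exact permutation p 0.882, adjusted 0.882). Without control replicate 4 and cKO replicate 1, the farthest for Drd1, r turned to 0.64 (exact permutation p 0.108). Drd1 and Ppp1r1b gave r of 0.015 (exact permutation p 0.992, adjusted 0.992) and rho of 0.31 (exact permutation p 0.462, adjusted 0.693), and r of 0.41 without those 2 libraries (exact permutation p 0.353).

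The genes whose levels over the 8 libraries were most like the mean of the 9 were ranked by Pearson's r among 10071 other genes. Those with the highest values included Hsp90ab1 (0.96), a cytosolic chaperone gene, Sh3rf3 (0.95), Cdkl4 (0.94), Hist1h2bc (0.94), Rab15 (0.94), Ap3b1 (0.92) and Ubash3b (0.92). Of the genes ranked, 13 had an r above 0.9. Among 16 genes of projection neuron identity with at least 10 CPM the median r was 0.41, and among 28 genes of the cascade from receptor to PKA it was 0.24, against 0.055 over all genes of this level. It was 0.35 for 10 cortical markers and 0.58 for 5 markers of striatal interneurons. For further markers it was 0.30 in the indirect pathway (4 genes) but -0.29 in the direct pathway (3 genes). It was also negative for 5 genes of dopamine neurons (-0.35) and 3 receptors of opioids and tachykinins (-0.25), and 0.17 for 6 genes that process peptide precursors. These are descriptions over 8 libraries that share depth and composition.

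Other genes of these neurons were taken from lists. Among 6 further markers of the direct pathway 0 passed (edgeR, adjusted p), with 4 positive and a median log2 fold change of 0.026. Chrm4, the muscarinic M4 receptor gene, had 0.16 (SE 0.12), and Ebf1, a transcription factor gene, 0.093 (SE 0.11). Of 6 further markers of the indirect pathway, 5 were tested and 0 passed, with 4 negative and a median of -0.055. Upb1 had -0.41 (SE 0.28) at 1.5 ± 0.208 and 1.14 ± 0.334 CPM (SD, n = 4), and Sp9, a transcription factor gene, -0.10 (SE 0.11). Among 17 genes of projection neuron identity 0 passed, 13 were negative and the median was -0.047. Actn2 had -0.15 (SE 0.088) and Gad2, a GABA synthesis enzyme gene, -0.10 (SE 0.064). No gene of these 3 lists reached an edgeR unadjusted p under 0.05, where 4.78% of all genes did. Of all genes tested, 48.8% had negative fold changes.

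Along the cascade from receptor to PKA and its targets, 0 of 29 genes passed edgeR's test over all genes, and 23 had negative fold changes, the median log2 value being -0.048. Over all genes tested 48.8% were negative. At an unadjusted p under 0.05, where 4.78% of all genes stood, 2 were lower and 1 higher. Prkar1a, encoding a type I regulatory subunit of PKA, had -0.16 (SE 0.055, edgeR unadjusted p 0.0108, adjusted p 0.889), with all 4 cKO libraries below the controls. Rgs7bp, which anchors RGS proteins of the R7 family such as RGS9 at the membrane, had -0.14 (SE 0.068, edgeR unadjusted p 0.0472, adjusted p 0.889) and was named after its values were seen. Rasgrp2, encoding a striatal exchange factor for Rap1, had 0.18 (SE 0.077, edgeR unadjusted p 0.0319, adjusted p 0.889).

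On the input and receiving sides, 0 of 5 tested genes of dopamine neurons passed, with Slc6a3, the dopamine transporter gene, at 0.10 (SE 0.10) and Slc18a2 at 0.10 (SE 0.19). The other tested dopamine receptor genes were low, with Drd3 at 1.06 ± 0.366 and 0.786 ± 0.419 CPM and Drd5 at 2.34 ± 0.515 and 2.28 ± 0.271 CPM in control and cKO brain (SD, n = 4). Among 5 tested receptors of opioids and tachykinins 0 passed. Oprm1, the mu opioid receptor gene that enkephalins act on, averaged 4.97 ± 0.486 CPM in the controls and 3.50 ± 0.784 CPM in the cKO libraries (SD, n = 4). Its log2 fold change of -0.52 (SE 0.17) had an edgeR unadjusted p of 0.00654 and an adjusted p of 0.889. Oprk1, the kappa receptor gene, had 0.14 (SE 0.12). Among 6 genes that process peptide precursors 0 passed, with Pcsk2 at -0.088 (SE 0.057) and Cpe at 0.077 (SE 0.052).

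**Figure D5:**
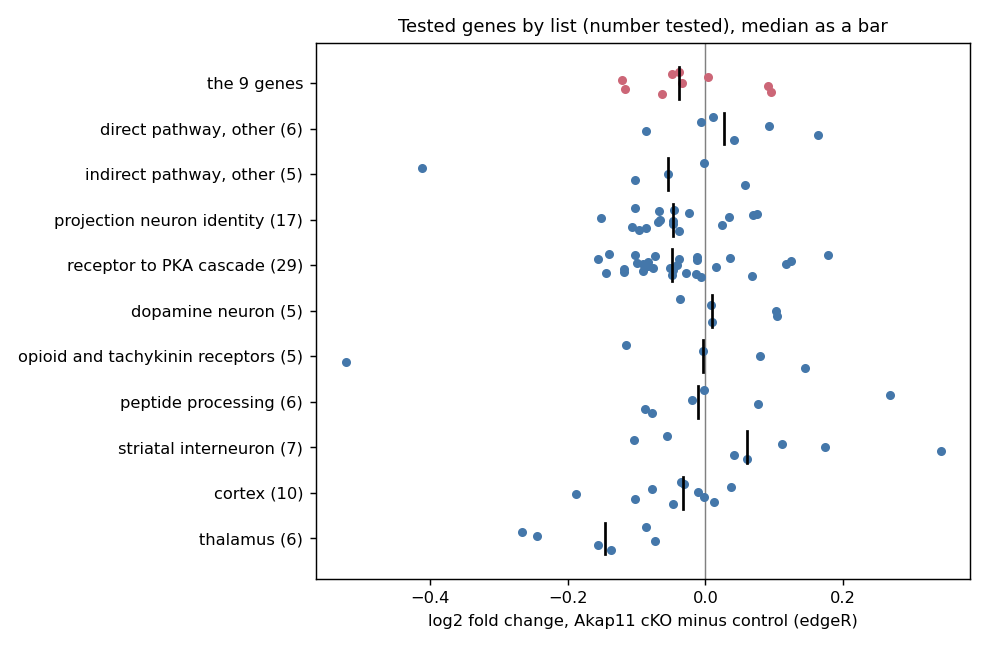
Log2 fold change, cKO minus control (horizontal axis), of every tested gene in the 9 genes and in 10 other lists, 1 point per gene, with the list's median as a black bar and the number tested in brackets. The 9 genes lie between -0.12 and 0.10, and thalamic markers are all negative, from -0.27 to -0.073.

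Markers of neighbouring regions and other cells were read beside these results. Of the 19 other lists, 1 had group sums that did not overlap, where of single genes 1.39% lay wholly below and 1.57% wholly above the controls. The 6 thalamic markers summed to 325 to 364 CPM in control and 294 to 318 CPM in cKO libraries, and 6 of 6 had negative fold changes (median log2 value -0.15), 3 of them at an edgeR unadjusted p under 0.05 and 0 at an adjusted p. Over all genes tested, 48.8% were negative and 4.78% had such an unadjusted p. By library the thalamic sums were 294, 311, 317 and 318 CPM in cKO replicates 1 to 4. The longest transcripts of these markers hold between 40.9% (Rora) and 52.2% (Prkcd) GC. Their values with GC-content offsets were not computed, so a part of GC content in them was not tested. Rora had -0.24 (SE 0.071, edgeR unadjusted p 0.00248, adjusted p 0.889) and Lhx9 -0.27 (SE 0.11, edgeR unadjusted p 0.0241, adjusted p 0.889). The 10 cortical markers summed to 1572 to 1785 and 1620 to 1824 CPM, with Rorb at -0.19 (SE 0.099) and Neurod6 at -0.10 (SE 0.095). The 7 markers of striatal interneurons summed to 332 to 347 and 327 to 392 CPM, and 0 of 7 passed, with 5 positive, 2 negative and the median at 0.061 (log2). The lowest p-values were those of Npy at 0.17 (SE 0.095) and Sst at 0.11 (SE 0.069). The part of tissue composition in the values of the 9 genes was not tested.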

How the data were processed

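The authors deposited unnormalized read counts per Ensembl gene for each library. The submitters' processing notes name HISAT2 and GRCm39, and the counting program, annotation and strand setting are named in no source used here. The 5 entries per file that name no gene were left out, which kept 63.8% to 79.7% of the reads. Symbols were found for 51880 of 57186 identifiers.

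The groups were compared with edgeR 4.0.16 in R 4.3.3 (filterByExpr, TMM, robust quasi-likelihood fit with group as the only term, Benjamini-Hochberg adjustment over all genes tested, threshold 0.05), checked on simulated counts. Log2 CPM used a prior count of 2. Alternatives were DESeq2 1.42.0, limma 3.58.1 (voom), other scalings and filters, a replicate block, GC-content offsets (loess, span 0.5) and libraries left out. GC content and lengths came from the longest GENCODE M21 transcript (GRCm38); no GRCm39 coordinate is given.

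The members and lists were chosen with earlier results of these data known. Named were Akap11, the 9 genes, up to 2 genes of lowest p per list, Rgs7bp (added after its values were seen) and the 8 genes most alike, of which 1 is not reported here. Of the other lists, those printed are the ones named in the text; in the remaining lists (dentate gyrus, olfactory bulb, hypothalamus, cerebellum, astrocytes, oligodendrocytes, microglia, endothelium) 0 genes passed the adjusted test.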

Additional observations from a re-analysis of the deposited data

Results flagged for a closer look

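Among 24 groups of 4 libraries examined (the 9 genes, Akap11 and the 2 pathway measures in each genotype), 1 held a library apart from the other 3. In cKO brain the Drd1 level of replicate 1 was 37.1 CPM, and its gap to the nearest library was 0.860 of the group's range, above Dixon's critical value for 4 samples. About 1 in 20 such groups is marked by chance. The library is the one with the fewest reads in genes, and its values beside depth and GC content are given with the receptor ratio.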

How the results depend on the processing

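Under the 17 alternatives to the edgeR fit, 0 of the 9 genes passed, with adjusted p of at least 0.704. Pdyn, Penk, Rgs9 and Tac1 kept their direction in all of them. Over the fits that leave out 1 library, log2 fold changes of Drd1 stayed negative, from -0.11 to -0.0060 (without cKO replicate 1). They ran from -0.027 (without cKO replicate 1) to 0.16 for Drd2 and from -0.086 to 0.027 (without cKO replicate 3) for Adora2a. For Gnal they ran from -0.051 (without cKO replicate 1) to 0.047, and for Ppp1r1b from -0.13 to 0.011 (without cKO replicate 3). Gnal was also negative without control replicate 2 (-0.0090) and control replicate 4 (-0.034), and Ppp1r1b positive without cKO replicate 4 (0.0081). Without control replicate 1 and cKO replicate 1 together, Drd1 turned to 0.035 and Gnal to -0.0055, the Drd1 to Drd2 log2 ratio differed by 0.029, and r of Drd1 with Drd2 was 0.22. Without cKO replicate 1 alone the ratio difference was 0.024, the upper end of a range from -0.25 over the fits that leave out 1 library. It was -0.089 with GC-content offsets and -0.15 with the replicate block. Genes called over the whole set numbered 4, and 7 with no low-count filter, 2 with limma voom, 2 with the replicate block, 2 without both libraries and 0 to 3 with 1 library left out. Same-numbered libraries did not deviate together (correlations 0.0052 to 0.049). These values gave no sign of pairing by number and do not exclude it. The direct minus indirect difference was lowest when cKO replicate 4 was left out (-0.056) and highest when cKO replicate 1 was (0.068), beside an SD of 0.051 among control and 0.16 among cKO libraries. Penk reached an edgeR unadjusted p under 0.05 with GC-content offsets (0.0192), without control replicate 4 (0.0487) and without cKO replicate 2 (0.0107). At 485 reads counting error alone is 4.54%, which limits Drd1, Pdyn and Tac1 most.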
